A study of Homo sapiens with 12 samples.

Results

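KCNQ3, CCBE1, CPA4, MARCHF4, ADGRF4, GLIPR1 and SCARA5 are 7 of the 40605 gene rows of the merged count table. They were chosen by their levels in these same libraries: libraries 2, 6 and 10 differed from the other 9 by about 20-fold, or the gene had a large weight on the leading axis of variation. The difference between those libraries and the rest is therefore given as a description, with no test. The label "near on-off" fitted KCNQ3 most closely. It was under 3 counts, the floor used here, in all of the other 9 libraries. CCBE1, CPA4, MARCHF4 and ADGRF4 were low there but never at 0 counts. CCBE1 and CPA4 were under the floor in 2 of these 9 libraries, and MARCHF4 and ADGRF4 in 1. GLIPR1 was read throughout, and SCARA5 went the other way, being lowest in libraries 2, 6 and 10.

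The RNA came from A549, an established human line of lung adenocarcinoma cells. All groups carry a tet-inducible transgene for the kinase DYRK1B, as wild type (WT) in one line and as the Y273F mutant in the other. Titles place 3 libraries in each of 4 groups: the WT line as control or with doxycycline at 2 µg/ml, and the Y273F line as control or with the same dose. All populations were cultured side by side for 7 days. Every sample carries a transgene, and whether a line is 1 clone or a pool was, for either line, not given in the sources used here. Libraries were made from polyadenylated RNA with a 3' tag kit that keeps the strand of the transcript. By title, library 2 is WT control 2, library 6 is WT doxycycline 3 and library 10 is Y273F doxycycline 1. Library 4 is WT doxycycline 1, library 8 is Y273F control 2 and library 12 is Y273F doxycycline 3. Libraries 1, 5 and 9 are WT control 1, WT doxycycline 2 and Y273F control 3, and libraries 3, 7 and 11 are WT control 3, Y273F control 1 and Y273F doxycycline 2. Each of these sets of 3 thus cuts across the labelled groups, and the sets are used here only to describe levels. Levels are in CPM, counts scaled to the size of each library. The libraries held between 2815673 and 22319921 counts, so that 3 counts, the floor used here, correspond to 0.133 to 1.06 CPM. Libraries 2, 6 and 10 stand apart from the rest over many genes, as the shares of genes given further on show. DYRK1B counts gave 28.1, 12.4 and 19.7 CPM in libraries 4, 8 and 12 and 2.61 to 7.74 CPM in the other 9. Library 8 carries a control label and libraries 5, 6, 10 and 11 a doxycycline label, so these levels go against 5 labels. Whether the transgene keeps the natural 3' end that such tags read was also not given in the sources used here.

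Different families are represented among the 7 genes. KCNQ3 encodes a subunit of the Kv7 potassium channels that carry the M-current in neurons, where they dampen firing. CCBE1 and CPA4 encode secreted proteins: CCBE1 helps ADAMTS3 process the lymphatic growth factor VEGFC, and CPA4 is a metallocarboxypeptidase that trims residues from the C-terminal end of peptides. MARCHF4 is a membrane-bound ubiquitin ligase of the Golgi, ADGRF4 an adhesion G protein-coupled receptor, GLIPR1 a membrane-associated protein of the CAP superfamily first described in glioma, and SCARA5 a class A scavenger receptor that can take up ferritin.

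CPA4 lies on chromosome 7 from 130293161 to 130324180 and ADGRF4 on chromosome 6 from 47698580 to 47722014, both on the plus strand (RefSeq, GRCh38.p14). A promoter window of 300 bases was at hand from RefSeq for 4 of the 7 genes (CCBE1, CPA4, MARCHF4 and ADGRF4). For CPA4, MARCHF4 and ADGRF4 it spans the gene start given in this report. The CCBE1 window (chr18:59697374-59697673, minus strand) lies inside the gene and does not reach its start at 59697721. Its values are therefore not those of that start. The promoters of CPA4 (chr7:130292911-130293210, plus strand) and ADGRF4 (chr6:47698330-47698629, plus strand) are shown because these were the members whose 300 bases held the letters TGANTCA, the site known for AP-1 (FOS and JUN dimers). Capitals mark that motif and, in CPA4, also TATAAA (the TATA box) and GGAATG (the site known for TEAD factors), each searched on both strands. In CPA4 the TATA box letters overlap on both strands and make a single run.

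CPA4: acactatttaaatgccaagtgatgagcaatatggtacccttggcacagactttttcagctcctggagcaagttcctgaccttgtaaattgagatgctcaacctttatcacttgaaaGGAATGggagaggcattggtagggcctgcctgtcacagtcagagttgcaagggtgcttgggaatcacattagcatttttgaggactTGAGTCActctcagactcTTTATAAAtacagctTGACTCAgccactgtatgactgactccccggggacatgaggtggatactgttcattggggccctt

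ADGRF4: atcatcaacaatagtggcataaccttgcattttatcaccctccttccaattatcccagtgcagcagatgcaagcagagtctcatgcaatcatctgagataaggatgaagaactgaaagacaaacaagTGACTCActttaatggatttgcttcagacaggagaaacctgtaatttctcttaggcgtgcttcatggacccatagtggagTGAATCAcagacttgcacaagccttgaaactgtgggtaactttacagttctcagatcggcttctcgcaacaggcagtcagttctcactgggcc

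In the CPA4 promoter TGAGTCA begins at position -48 and TGACTCA at -15 from the gene start, on either side of a TATA box at -28, and GGAATG begins at -134. In the ADGRF4 promoter TGACTCA begins at -123 and TGAATCA at -43. Of 35116 promoters of the same length, 7.71% held TGANTCA, 11.5% TATAAA and 14% GGAATG. None of the 3 motifs was found in the CCBE1 or MARCHF4 window. The GC content of the windows was 46.3% for CPA4, 44.3% for ADGRF4, 55.0% for MARCHF4 and 65.3% for CCBE1, against a median of 58.7% over all promoters. A match of letters is a description and says nothing of binding.

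KCNQ3 had 27, 46 and 21 counts in libraries 2, 6 and 10, which is 6.02, 6.36 and 7.39 CPM. In 6 of the other 9 libraries it had 0 counts, in libraries 1 and 12 it had 1 count and in library 5 it had 2. The gene was thus under the floor of 3 counts in all 9, including library 9, the deepest, where the exact 95% Poisson interval of a count of 0 reaches 0.163 CPM. This and the other intervals cover counting error only. In bulk RNA fewer cells that express a gene and less RNA per cell cannot be told apart. Set against 3 counts in a library of median depth, the median of libraries 2, 6 and 10 was at least 18.9-fold higher. The exact interval of a count of 0 reaches above 3 counts, so this bound depends on the floor used. No rise was detectable in libraries 4, 8 and 12, which held 1 count between them.

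The secreted proteins came next. CCBE1 was read at 26.1, 35.5 and 33.1 CPM in libraries 2, 6 and 10. In libraries 1, 5 and 9 it was at 1.12, 0.103 and 0.531 CPM, in libraries 3, 7 and 11 at 0.443, 0.744 and 0.385 CPM, and in libraries 4, 8 and 12 at 1.43, 0.982 and 1.5 CPM. Libraries 4, 8 and 12 were above 3, 7 and 11 but overlapped with 1, 5 and 9, because library 1 lay between them. For CCBE1 the intervals of library 4 (0.683 to 2.62 CPM, 10 counts) and library 8 (0.202 to 2.87 CPM, 3 counts) span the level of library 7. CPA4 was read at 21.9, 21.3 and 29.9 CPM in libraries 2, 6 and 10. It was at 0.112, 0.719 and 0.531 CPM in libraries 1, 5 and 9, at 0.221, 0.744 and 0.771 CPM in 3, 7 and 11, and at 2.28, 0.982 and 1.39 CPM in 4, 8 and 12. For CPA4, libraries 4, 8 and 12 were thus above all 6 of the odd-numbered libraries, on 16, 3 and 13 counts, while 1, 5 and 9 overlapped with 3, 7 and 11. The count of 3 in library 8 has an interval of 0.202 to 2.87 CPM, which spans the highest odd-numbered library.

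Of the membrane proteins, MARCHF4 had the most even level in libraries 2, 6 and 10, at 20.7, 22 and 19.7 CPM. It was at 0.112, 0.308 and 0.841 CPM in libraries 1, 5 and 9, at 2.10, 1.36 and 0.578 CPM in 3, 7 and 11, and at 4.70, 1.31 and 2.04 CPM in 4, 8 and 12. Library 4 had the highest MARCHF4 level of the 9, with an interval of 3.24 to 6.60 CPM on 33 counts, and libraries 8 and 12 lay within the range of 3, 7 and 11. ADGRF4 was read at 17.0, 16.6 and 19.7 CPM in libraries 2, 6 and 10. It was at 0.896, 0.821 and 0.576 CPM in 1, 5 and 9, at 0.775, 1.24 and 0.193 CPM in 3, 7 and 11, and at 1.28, 2.29 and 1.61 CPM in 4, 8 and 12. Libraries 4, 8 and 12 were again above the 6 odd-numbered ones, on 9, 7 and 15 counts, but library 4 exceeded library 7 by less than the counting error of either. Scaled to library totals without TMM factors, the order of that pair turned for ADGRF4 (1.23 in library 4 against 1.25 CPM in library 7).

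GLIPR1 was read at 132, 128 and 113 CPM in libraries 2, 6 and 10. It was at 5.37, 3.90 and 7.57 CPM in libraries 1, 5 and 9, at 7.97, 9.18 and 6.74 CPM in 3, 7 and 11, and at 11.0, 10.8 and 13.3 CPM in 4, 8 and 12. The set medians therefore ran 5.37, 7.97, 11.0 and 128 CPM in that order with libraries 2, 6 and 10 last. The first pair of sets overlapped and libraries 4, 8 and 12 were above both, with between 33 and 124 counts each. The intervals of library 4 (8.66 to 13.7 CPM) and library 8 (7.43 to 15.2 CPM) span the level of library 7. That of library 12 (11.0 to 15.8 CPM) does not. SCARA5 had the reverse order. It was read at 33.3, 34.6 and 31.4 CPM in libraries 1, 5 and 9, at 11.8, 15.5 and 21.0 CPM in 3, 7 and 11, at 7.84, 4.91 and 11.7 CPM in 4, 8 and 12, and at 0.892, 1.93 and 2.11 CPM in 2, 6 and 10. No pair of sets overlapped for SCARA5 with TMM scaling, but library 12 (interval 9.59 to 14.1 CPM) and library 3 (9.70 to 14.3 CPM) were not distinguishable by counting error, and with library totals alone they overlapped (11.7 against 11.6 CPM). With 4, 14 and 6 counts in libraries 2, 6 and 10, all above the floor of 3 counts, SCARA5 was lower there but still read.

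**Figure D1:**
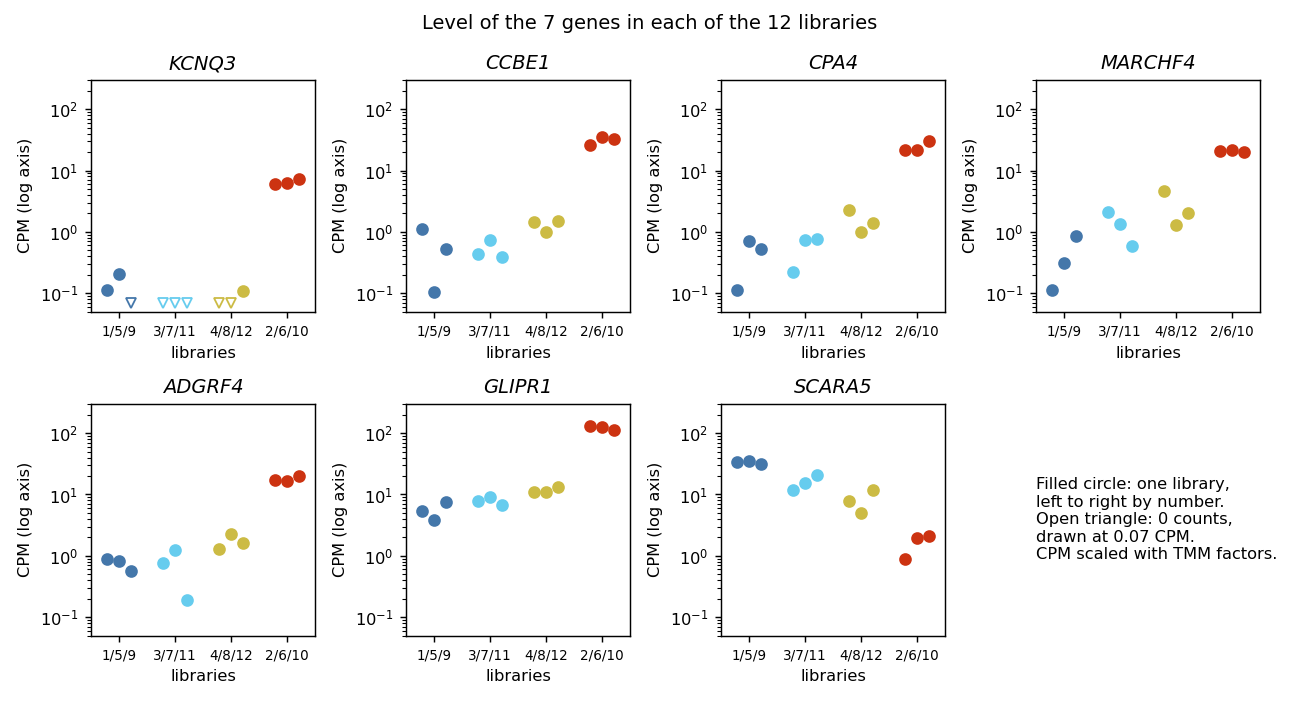
Level of each gene in CPM (log axis) in the 12 libraries, grouped as 1/5/9, 3/7/11, 4/8/12 and 2/6/10. Filled circles are single libraries and open triangles mark 0 counts, drawn at a fixed height. Libraries 2, 6 and 10 lie above all others for 6 genes and below all others for SCARA5.

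The separation of libraries 2, 6 and 10 was what the choice used. It is given here by the ratio of the median CPM of these 3 libraries to the median of the other 9. The ratio was 44.5 for CCBE1, 29.4 for CPA4, 18.9 for ADGRF4, 16.0 for GLIPR1 and 15.9 for MARCHF4, and for SCARA5 the median of the other 9 was 8.02-fold higher. By this measure CCBE1 and CPA4 passed 20-fold, while the bound for KCNQ3 and the ratios of the others lay under it. The choice also took genes with a large weight on the first principal component. Over the 500 most variable genes that component held 66.3% of the variance, and the members ranked between 7 (CCBE1) and 75 (SCARA5) by the size of their weight. Of genes with at least 1 CPM in each of libraries 2, 6 and 10, 22 reached 20-fold. Just inside the threshold were TEX41 (21.3), the small leucine-rich proteoglycan gene LUM (21.0) and LINC02869 (20.6), and outside it TMEM171 (19.7) and the cytokine gene IL32 (19.1). Separation without overlap, whatever its size, was common: 18.5% of the 13838 tested genes were higher in each of libraries 2, 6 and 10 than in all others, and 15.6% were lower.

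As to a partial elevation, libraries 4, 8 and 12 were all above the 6 odd-numbered libraries for 3 of 7 members (CPA4, ADGRF4 and GLIPR1), a pattern that 5.28% of tested genes showed. They were all below them for SCARA5 (4.69% of tested genes), hence also below 3, 7 and 11 (8.53%) and below 1, 5 and 9 (14.1%). With library totals in place of TMM the count above was 2 of 7, without ADGRF4, and SCARA5 overlapped with libraries 3, 7 and 11. The weights used in the choice also draw on these libraries: scores on the first component were -8.60 to -4.74 in libraries 4, 8 and 12 and -20.0 to -18.1 in the odd-numbered ones. The levels in libraries 4, 8 and 12 are therefore not independent of the choice either. Against libraries 3, 7 and 11 alone, 4, 8 and 12 were higher without overlap for CCBE1, CPA4, ADGRF4 and GLIPR1 (8.79% of tested genes), and against 1, 5 and 9 alone for CPA4, MARCHF4, ADGRF4 and GLIPR1 (13.6%). Libraries 3, 7 and 11 were lower than 1, 5 and 9 without overlap for SCARA5 (9.89% of tested genes) and higher for no member (9.42%). The level of GLIPR1 in libraries 4, 8 and 12 remained well under that in 2, 6 and 10, whose lowest library was 8.51-fold above the highest of the rest. DYRK1B was also highest in libraries 4, 8 and 12, and its part in the members' levels there was not tested.

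**Figure D2:**
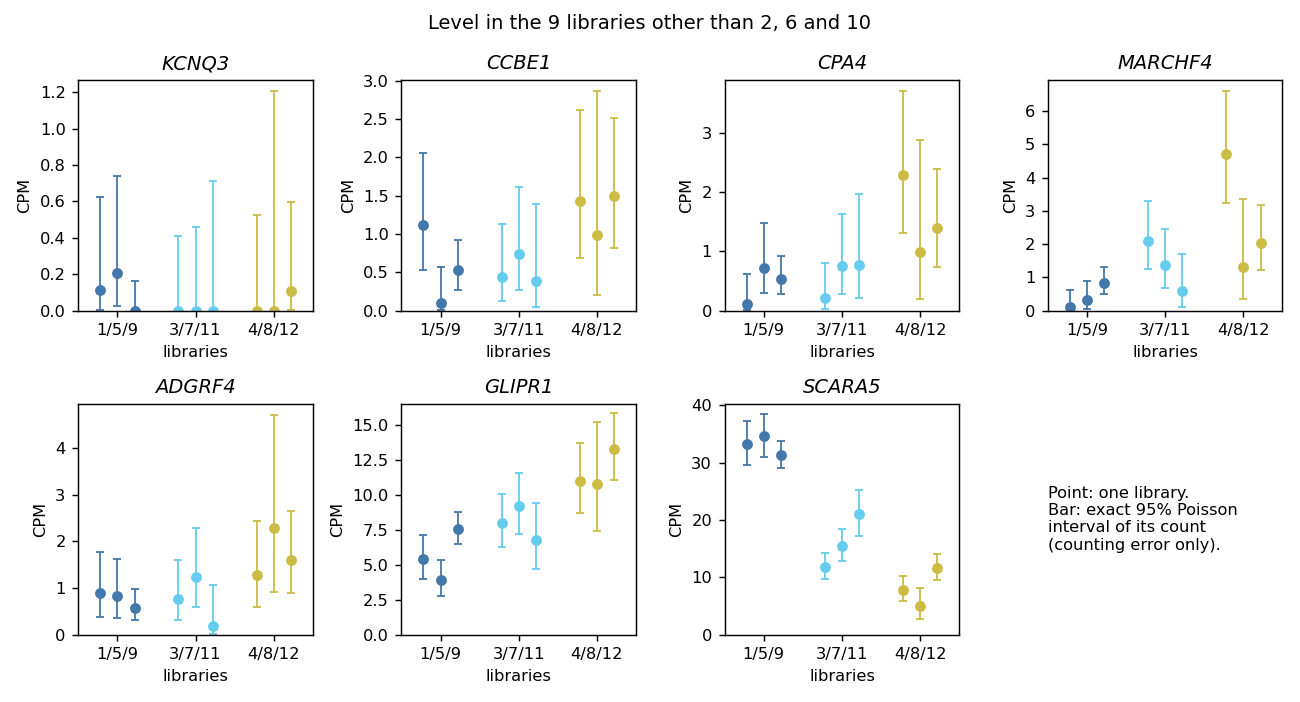
Level of each gene in CPM (linear axis from 0) in the 9 libraries other than 2, 6 and 10, with the exact 95% Poisson interval of each count. GLIPR1 lies between 10.8 and 13.3 CPM in libraries 4, 8 and 12 and at most at 9.18 CPM in the others, and SCARA5 is highest in 1/5/9, then 3/7/11, then 4/8/12, with libraries 3 and 12 nearly equal.

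Among the other 9 libraries, which also enter the weights used in the choice, the log2 CPM of the 10 pairs among CCBE1, CPA4, MARCHF4, ADGRF4 and GLIPR1 had Pearson correlations of 0.330 (CCBE1 with CPA4) to 0.815 (MARCHF4 with GLIPR1). SCARA5 had -0.54 with CCBE1, -0.55 with CPA4, -0.65 with ADGRF4, -0.77 with MARCHF4 and -0.80 with GLIPR1, and 0.50 with KCNQ3, which was at or near 0 counts there. All 12 samples carry the same value in the batch field of the labels and differ in depth, and the counts of 4 of these 5 genes are low, so the values are descriptions.

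The genes whose log2 CPM followed each member most closely over the 12 libraries were named by rule, 3 for each, with Pearson correlations of 0.981 to 0.992. Since libraries 2, 6 and 10 differ widely from the rest for the members, the correlation over the other 9 libraries is given beside it. That ran from 0.539 to 0.967. These 9 libraries also entered the choice of the genes, so neither correlation is independent of it. GLIPR1 was followed by CDH2, which encodes N-cadherin (0.992, and 0.892 over 9), by the matrix protein gene TGFBI (0.992 and 0.900) and by the actin-binding caldesmon gene CALD1 (0.992 and 0.862). CPA4 was followed by OGFRL1 (0.984 and 0.941), by TIMP4, an inhibitor of matrix metalloproteinases (0.983 and 0.938), and by MAP1B, a microtubule-associated protein (0.982 and 0.852). TIMP4 was at 12.9 to 17.4 CPM in libraries 2, 6 and 10 and at 1.79 to 5.27 CPM elsewhere. MARCHF4 was followed by CMIP (0.986 and 0.942), GPD1L (0.984 and 0.931) and the smooth muscle actin gene ACTA2 (0.981 and 0.914). ADGRF4 was followed by the actin-binding nexilin gene NEXN (0.987 and 0.898), the collagen receptor gene ITGA11 (0.984 and 0.862) and RTN4 (0.982 and 0.891). ITGA11 was itself near on-off, at 29.9 to 41.5 CPM in libraries 2, 6 and 10 and at 0.385 to 2.85 CPM elsewhere. CCBE1 was followed by SNORC (0.989 and 0.882), the small GTPase gene RRAS2 (0.987 and 0.814) and ARPC2, a subunit of the actin-nucleating Arp2/3 complex (0.986 and 0.809). For KCNQ3 the genes were PGM2L1, the lysosomal cholesterol carrier NPC2 and the proton pump subunit ATP6V0E1, and its own counts in the other 9 libraries are too few to follow there. SCARA5 was followed by HABP2 (0.985 and 0.966), the ribonuclease gene ANG (0.984 and 0.967) and SPDEF, an epithelial transcription factor (0.981 and 0.951). ANG was at 14.9 to 17.4 CPM in libraries 2, 6 and 10 and at 28.5 to 84.3 CPM elsewhere.

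Relatives and partners of the members were read from 7 lists of 86 genes, of which 36 were tested. Of these, 10 (27.8%) were higher in libraries 2, 6 and 10 than in all others and 8 (22.2%) lower, beside 18.5% and 15.6% of all tested genes. These genes are outside the choice of the 7 but were read in the same libraries. In the CAP superfamily GLIPR2 had 44.0 to 54.4 CPM in libraries 2, 6 and 10, 9.75 to 10.8 CPM in 4, 8 and 12, and 3.43 to 8.81 CPM in the rest. CRISPLD2, a secreted member, had 10.2 to 11.2 CPM in libraries 2, 6 and 10, 2.29 to 4.39 CPM in 4, 8 and 12, 1.33 to 1.74 CPM in 3, 7 and 11 and 0.784 to 0.924 CPM in 1, 5 and 9. Both thus had the order that GLIPR1 showed with libraries 4, 8 and 12 between, and GLIPR1L2 was at most at 2.12 CPM. Around CCBE1, VEGFC itself was at 4.93 to 5.8 CPM in libraries 2, 6 and 10 and 2.44 to 4.05 CPM elsewhere. NRP2, a co-receptor for VEGFC, was at 132 to 137 and 27.0 to 50.1 CPM, and the receptor gene FLT4 overlapped (1.34 to 3.17 against 0.771 to 3.47 CPM).

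The carboxypeptidase inhibitor gene LXN, which encodes latexin, was at 20.8 to 44.4 CPM in libraries 2, 6 and 10, 42.2 to 53.0 CPM in 4, 8 and 12, and 103 to 134 CPM in the odd-numbered libraries. RARRES1, a relative of latexin, was lowest in libraries 2, 6 and 10 (1.41 to 2.35 against 2.94 to 11.1 CPM). Of the ubiquitin ligases related to MARCHF4, MARCHF6 was lower (120 to 135 against 148 to 168 CPM), MARCHF5 and MARCHF7 overlapped, and MARCHF3, chosen after its values were seen, was higher (5.39 to 7.39 against 0.570 to 1.55 CPM). Among adhesion receptors ADGRG1 was at 104 to 124 CPM in libraries 2, 6 and 10, 63.6 to 75.8 CPM in 4, 8 and 12 and 44.3 to 57.2 CPM in the odd-numbered ones. ADGRE5 was lower (53.9 to 57.5 against 61.7 to 74.4 CPM), ADGRG6 overlapped, and ADGRL1, chosen after its values were seen, was at 6.47 to 8.02 against 34.2 to 52.5 CPM. Beside SCARA5, the ferritin heavy chain gene FTH1 was lower (2285 to 2488 against 2735 to 3614 CPM), NCOA4, which delivers ferritin for breakdown, was higher (180 to 219 against 121 to 142 CPM), and the light chain gene FTL overlapped. KCNQ1, KCNQ5 and the subunit gene KCNE4 were at most at 3.6 CPM in any library and overlapped. In none of the 4 labelled comparisons did any of the 36 genes pass the test.

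**Figure D3:**
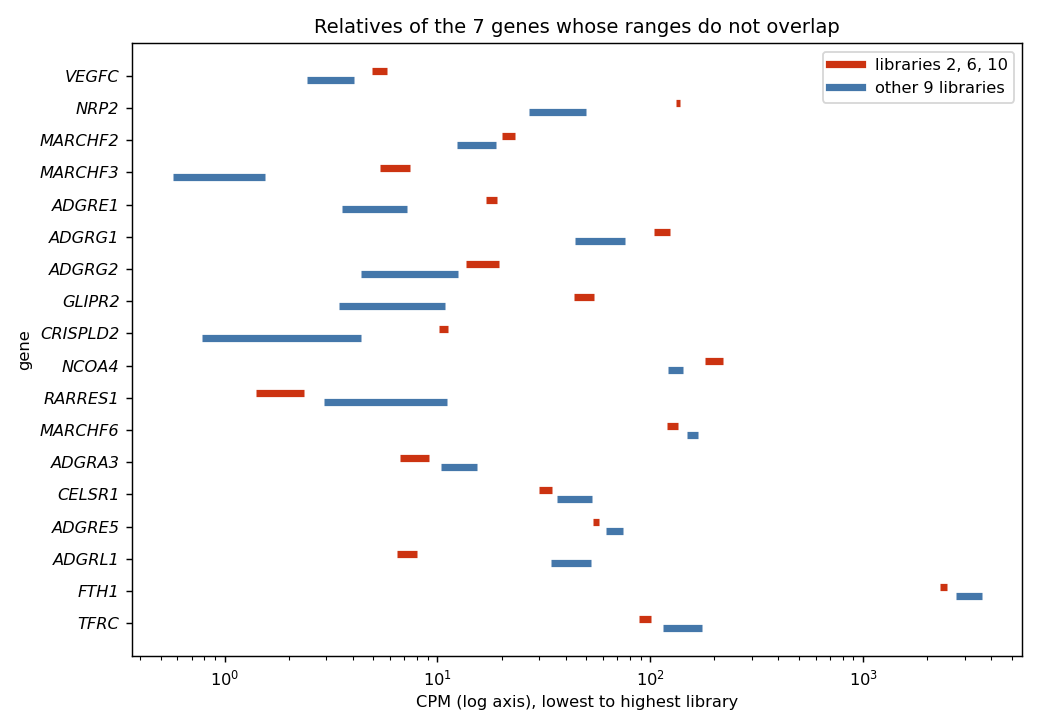
Range of CPM (log axis) from the lowest to the highest library, in libraries 2, 6, 10 and in the other 9, for the 18 relatives and partners of the members whose ranges do not overlap. Among these 18, MARCHF3, GLIPR2 and ADGRL1 have the widest gaps on this axis.

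Genes next to the members were compared by position. On GRCh38.p14, RefSeq places KCNQ3 on chromosome 8 from 132120861 to 132481095 and SCARA5 on the same chromosome from 27869883 to 27992673, both on the minus strand. CCBE1 lies on chromosome 18 from 59430939 to 59697721 (minus), MARCHF4 on chromosome 2 from 216257865 to 216372483 (minus) and GLIPR1 on chromosome 12 from 75480755 to 75503863 (plus), and each of the 7 is a protein-coding gene. CPA4 lies in a cluster of carboxypeptidase genes, and its neighbour CPA5 had 2 counts in all libraries together. HHLA1 beside KCNQ3 and OPN5 beside ADGRF4 had 0 counts. Of 10 tested neighbours or overlapping genes, 1 was higher in libraries 2, 6 and 10 than in all others and 4 were lower, beside 18.5% and 15.6% of all tested genes. DNAAF11 beside KCNQ3 was the one higher there (8.92 to 16.4 against 4.82 to 7.5 CPM). LMAN1 beside CCBE1, XRCC5 beside MARCHF4 and the mitotic kinase gene PBK beside SCARA5 were lower, as was PHLDA1, 521584 bases beyond GLIPR1. PBK was at 38.01 to 44.0 CPM there and at 59.1 to 105.7 CPM elsewhere. KRR1, a ribosome assembly gene, overlaps the 3' part of GLIPR1 on the opposite strand (75490863 to 75511609) and did not separate the libraries (129.6 to 151.6 against 134.5 to 177.6 CPM). Opposite-strand counts at GLIPR1 accordingly ran from 288 to 2600 per library, while the other members had 0, except ADGRF4 with 2. Counted without strand, GLIPR1 kept 1059 of its 2510 counts, so its level rests on the strand of the reads.

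By labelled group, a library of the set 2, 6 and 10 lies in every group but Y273F control. The comparisons take the titles as deposited. DYRK1B went against the title in 5 libraries, and whether the titles belong to these libraries was not tested, so the values below compare titles and not levels of the kinase. GLIPR1 was at 48.5 ± 72.5 CPM in WT control, 47.5 ± 69.5 CPM in WT doxycycline, 9.18 ± 1.61 CPM in Y273F control and 44.3 ± 59.6 CPM in Y273F doxycycline (SD, n = 3 each). SCARA5 was at 15.3 ± 16.5, 14.8 ± 17.4, 17.3 ± 13.3 and 11.6 ± 9.44 CPM in the same order (SD, n = 3 each). The spread of the groups with a library of that set was larger than their mean for GLIPR1. With edgeR's quasi-likelihood test over 13838 genes and Benjamini-Hochberg adjustment, 0 genes (0% of those tested) and 0 of 7 members passed an adjusted p of 0.05 in any of the 4 comparisons.

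For doxycycline in the WT line the members' log2 fold changes ran from -0.07 (SCARA5, SE 1.09) to 0.49 (CCBE1, SE 1.73), with KCNQ3 at 0.23, MARCHF4 at 0.30, CPA4 at 0.21, ADGRF4 at 0.08 and GLIPR1 at -0.00309, all with edgeR adjusted p = 0.9997. All 7 SEs were larger than the change itself, and 134 genes in all had an unadjusted p under 0.05. For doxycycline in the Y273F line the values were 3.97 for CCBE1 (SE 2.21), 3.85 for CPA4 (SE 2.06), 2.60 for MARCHF4 (SE 1.74), 2.49 for ADGRF4 (SE 1.74), 2.25 for GLIPR1 (SE 1.53) and -0.59 for SCARA5 (SE 1.11), with edgeR adjusted p = 0.992 for each. KCNQ3 had 0 counts in all Y273F control libraries and 21, 0 and 1 in Y273F doxycycline 1 to 3, so no fold is given. In all, 225 genes had an unadjusted p under 0.05, and none of the members did. Without Y273F doxycycline 1, which is library 10, the values for the Y273F line were 0.60 for CCBE1, 0.71 for CPA4, 0.33 for MARCHF4 and 0.19 for GLIPR1, and -0.22 for ADGRF4. Leaving out WT control 2 (library 2) moved the doxycycline effect in WT to 2.82 for GLIPR1 and 5.47 for CPA4, and leaving out WT doxycycline 3 (library 6) moved it to -2.69 for GLIPR1. With libraries 2, 6 and 10 all left out it was 0.13 for GLIPR1, 3.02 for CPA4, 1.11 for MARCHF4 and -0.14 for CCBE1, again with 0 genes called. DESeq2 called 0 genes in both comparisons, with 116 and 232 at an unadjusted p under 0.05.

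Subtracting the doxycycline effect in Y273F from that in WT gave -2.25 for GLIPR1 (SE 2.06) and 0.52 for SCARA5 (SE 1.56) on the log2 scale, with edgeR adjusted p = 0.9997 for both. Y273F control against WT control gave -2.40 for GLIPR1 (SE 1.52, edgeR adjusted p = 0.994) and 0.20 for SCARA5 (SE 1.09, edgeR adjusted p = 0.997). At an unadjusted p under 0.05 there were 165 and 460 genes with edgeR, and 144 and 481 with DESeq2, which called 0. Leaving out WT control 2, which is library 2, moved GLIPR1 to 0.58 in the first and to 0.42 in the second of these comparisons. The labelled groups overlapped for all 7 members in both doxycycline comparisons and between the control groups, while 3.27% of tested genes did not overlap for doxycycline in WT, 10.9% for doxycycline in Y273F and 10.8% between the controls.

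**Figure D4:**
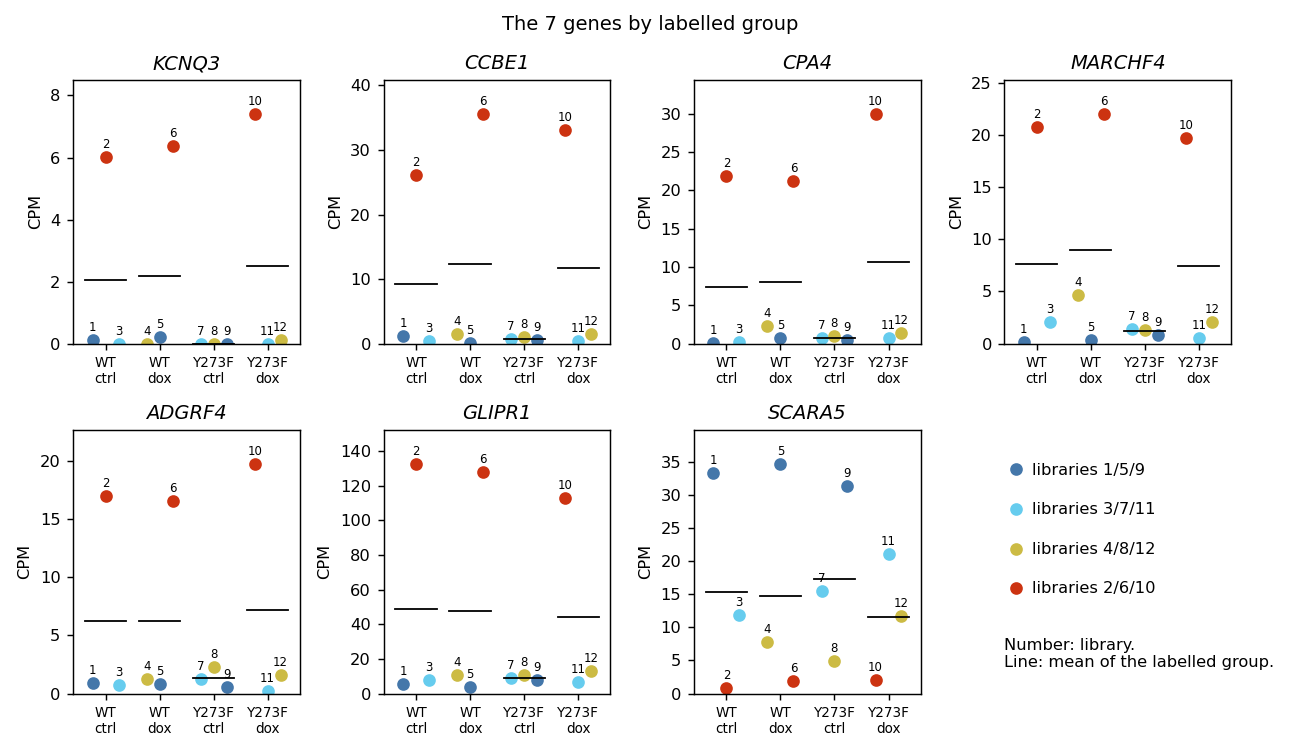
Level of each gene in CPM (linear axis from 0) by labelled group, with library numbers beside the points and a line at the mean of the 3 libraries. In 3 of the 4 groups 1 library carries most of the mean of KCNQ3, CCBE1, CPA4, MARCHF4, ADGRF4 and GLIPR1.

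Markers of other cell types were read in the same libraries. The 8 lung epithelial and A549 markers were all read, with summed levels of 11455 to 14406 CPM in libraries 2, 6 and 10 and 7547 to 11560 CPM elsewhere. Within the list the keratin genes KRT18 (6125 to 8473 against 2262 to 3362 CPM) and KRT8 (1776 to 2449 against 667 to 1304 CPM) were higher in libraries 2, 6 and 10. The E-cadherin gene CDH1 (24.3 to 30.3 against 43.4 to 65.7 CPM), AKR1C1 (292 to 338 against 360 to 756 CPM) and ALDH3A1 (464 to 546 against 1282 to 2637 CPM) were lower, and the other 3 overlapped. Fibroblast markers (2 of 7 tested) summed to 146.9 to 210.1 CPM in libraries 2, 6 and 10 and 14.3 to 31.6 CPM elsewhere, nearly all of it COL1A1. In that list COL1A1 (134.8 to 195.4 against 13.1 to 30.2 CPM) and LUM (11.3 to 13.6 against 0 to 1.54 CPM) were higher there, while COL1A2, COL3A1, DCN, PDGFRA and PDGFRB stayed at or under 1.06 CPM in every library. By labelled group the sum ran from 14.6 to 210.1 CPM in WT control, 20.02 to 146.9 in WT doxycycline, 17.0 to 30.4 in Y273F control and 14.3 to 173.6 in Y273F doxycycline. Endothelial and lymphatic markers (0 of 6 tested, VWF and LYVE1 at 0) summed to at most 2.11 CPM, and immune markers (2 of 6 tested, CD3E at 0) to 6.69 to 12.2 CPM in libraries 2, 6 and 10 and 6.22 to 12.3 CPM elsewhere. Neuronal markers (4 of 6 tested, STMN2 at 0), listed because KCNQ3 is best known from neurons, summed to 73.6 to 76.8 CPM in libraries 2, 6 and 10 and to 110.5 to 195.2 CPM elsewhere. RBFOX3 was lower there (9.40 to 12.3 against 78.9 to 136 CPM), NEFL was higher (6.34 to 11.4 against 0.111 to 2.89 CPM), and SYT1 (44.6 to 54.2 against 24.7 to 48.9 CPM) and SNAP25 (0.704 to 6.25 against 4.91 to 13.3 CPM) overlapped. The part of these markers in the levels of the members was not tested.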

How the data were processed

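Counts come from 12 libraries of A549 cells, grouped by their titles. Per the labels' protocols the libraries were made with QuantSeq FWD V2, and per the submitters' processing notes STAR was the aligner and GRCh38.p14 the build. Its version, the annotation and the treatment of duplicate reads were not given in the sources used here. Deposited files hold, per library, whole-number counts of reads for every gene, once ignoring strand and once for either strand, and a merged table by symbol, in which the rows of the 7 genes equal the transcript-strand counts. Reads assigned to no gene (35.5% to 43.2%) were left out. Symbols were matched for 60463 of 60664 identifiers.

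Transcript-strand counts were filtered with filterByExpr (minimum count 10), scaled with TMM factors and given as CPM. They were tested with edgeR 4.0.16 (glmQLFit, glmQLFTest, R 4.3.3) with a mean for each of the 4 labelled groups, threshold 0.05. Replicates are, per the series text, separate cell populations grown in parallel. Correlations used log2 CPM with a prior count of 2 and candidate genes of at least 5 CPM on average. The named genes were the 7 members, the 3 most alike for each, up to 3 relatives per list by mean CPM, the neighbours, and the genes next to the 20-fold threshold. Some genes that this rule takes in are not reported here. The members, lists and alternatives were chosen with earlier results of these data known. Alternatives were DESeq2 1.42.0 (size factors, Wald test), library totals, no filter, a replicate term, unstranded counts, the merged table, and fits without libraries 2, 6 and 10 or without each library in turn. The procedure was tested on simulated counts for doxycycline in WT, with the spread taken from these data. It recovered 24% of 100 genes changed 2-fold and 88% of 100 genes changed 4-fold, with 6 false calls. The simulated counts held no library sets, so the share recovered in the real libraries was not tested.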

Additional observations from a re-analysis of the deposited data

How the results depend on the processing

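Under DESeq2 size factors, library totals, no filter, the DESeq2 Wald test, unstranded counts, the merged table and the fit without libraries 2, 6 and 10, 0 genes and no tested member passed in each of the 4 comparisons. In the fit without libraries 2, 6 and 10 KCNQ3 fell under the filter and 6 members were tested. All 7 entered the other fits, but the DESeq2 Wald test gave CCBE1 and GLIPR1 no adjusted p for doxycycline in either line. It therefore did not decide on these members there. No pairing by replicate number is stated. Deviations of same-numbered libraries from their labelled group means correlated at -0.64 to 0.09, and 0 of 12 libraries correlated best with their own number. The library sets that cut across the groups enter these deviations, so the check cannot decide whether the numbers pair the samples. With the replicate number as a block 0 genes passed, and the log2 fold change of GLIPR1 for doxycycline in WT, -0.00309 without it, was 0.0862. That value was also positive with library totals (8.12e-04), without a filter (0.00972), with unstranded counts (0.0949) and without libraries 2, 6 and 10 (0.13). Without those libraries the signs also turned for CCBE1 for doxycycline in WT (-0.14), for ADGRF4 for doxycycline in Y273F (-0.18), and for GLIPR1 (0.41) and SCARA5 (-0.24) between the control groups. The cause of these turns was not tested beyond the libraries left out.

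Leaving out each library in turn, the log2 fold changes for doxycycline in WT ranged from -3.83 to 4.95 for KCNQ3, -3.61 to 3.95 for CCBE1, -2.24 to 5.47 for CPA4, -1.58 to 2.99 for MARCHF4, -2.48 to 2.86 for ADGRF4, -2.69 to 2.82 for GLIPR1 and -1.68 to 1.14 for SCARA5. For doxycycline in Y273F they ranged from -0.22 to 3.10 for ADGRF4 and -1.25 to 0.17 for SCARA5. For the difference they ranged from -4.94 to 0.58 for GLIPR1 and -1.10 to 1.72 for SCARA5, and between the control groups from -2.94 to 0.42 for GLIPR1 and -0.56 to 1.40 for SCARA5. No member passed in any of these fits, with adjusted p between 0.805 and 1 over all alternatives where one was given. The count of genes passed ranged from 0 to 0 for doxycycline in WT and from 0 to 1 in each of the other 3 comparisons, where leaving out Y273F control 2 brought in SLX1B, leaving out Y273F doxycycline 2 RPL32P18, and leaving out Y273F doxycycline 3 FKBP1C. The count of members with libraries 4, 8 and 12 above the odd-numbered ones was 3 with DESeq2 size factors, unstranded counts and the merged table, 2 with library totals (without ADGRF4), and 3 to 4 with a library left out (CCBE1 added). The log2 ratio of libraries 2, 6 and 10 to the rest kept its sign in all 112 recalculations. In 11 it moved by more than the spread within those 3 libraries. The members were chosen by this difference or a weight tied to it, so the sign was set by the choice and its keeping is no support. Depth limits KCNQ3 most, since it had the fewest counts of the 7 members, 98 over all libraries. For every gene 1 count is worth 0.352 CPM in library 10, the shallowest.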
